A study of Mus musculus with 6 samples.

Results

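Histone mRNAs were compared in AML12 cells, a mouse hepatocyte line immortalised with a transforming growth factor alpha transgene, between stably transfected cells labelled sh-NC and sh-1. The members were every gene of the deposited table whose name began with Hist1h to Hist4h, H2af, H3f3 or H1f, which gave 82 of 26359 genes. Of these, 67 were replication-dependent genes (6 of H1, 18 of H2A, 18 of H2B, 12 of H3 and 13 of H4) and 15 were variant genes. The groups held 3 libraries each. The cell line label calls one group sh-NC, read here as a control hairpin, and the other sh-1, read as a hairpin against Tm9sf1. The titles give only the name of the line for sh-NC and the name Sh-2 for sh-1, so it is not certain that sh-NC cells carried a hairpin, and no genotype, treatment or age beyond this is labelled. Each group is a single stable line as far as the labels go, and nothing in them says whether a line was 1 clone or whether the replicates were separate cultures, so a p-value reflects only how far these libraries spread, and that spread may be technical.

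Nucleosomes wrap DNA around pairs of the core histones H2A, H2B, H3 and H4, and a linker histone of the H1 family binds where the DNA enters and leaves. Replication-dependent histone genes lie in clusters, are transcribed mainly in S phase and give unspliced mRNAs that end just after a conserved stem-loop in place of a poly(A) tail. Variant genes lie apart from the clusters, are transcribed through the cell cycle, and mostly give spliced, polyadenylated mRNAs that supply nucleosomes outside replication. Here mRNA was captured with oligo(dT) beads, so a replication-dependent mRNA was counted mainly where it carried a poly(A) tail. A change in how much of an mRNA was polyadenylated and a change in how much of it was made cannot be told apart in these libraries.

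Library totals ranged from 36997329 to 51334798 counts. The targeted gene, Tm9sf1, measured 47.2, 53.4 and 45.8 CPM (counts scaled to library size) in sh-NC and 35.3, 36.8 and 36.5 CPM in sh-1, a log2 fold change of -0.43 ± 0.10 (SE, adjusted p = 0.00186). That fall was not called once the trend of fold change with GC content and transcript length was removed (-0.07, adjusted p = 0.488), so the check of the labels rests on a small difference. The libraries differed in base composition by group: log2 expression relative to the gene mean moved with GC content by 0.29 to 0.52 per 10 percentage points in sh-NC and by -0.53 to -0.29 in sh-1. Hepatocyte markers were uneven, with Krt8, Krt18, Trf and Hnf4a well detected but Alb at only 1.77 to 5.05 CPM. Ttr (0.12 to 2.15 CPM), Apoa1 (0.0521 to 1.97) and Serpina1a (2.79 to 8.50) were low too, and Apob lay at 4.01 to 41.2. Of the cholangiocyte and progenitor markers, Krt19 (869 to 1092 CPM) and Krt7 (394 to 818) were well detected, Sox9 lay at 20.8 to 84.6 and Epcam reached at most 0.291. All 5 fibroblast markers together reached at most 1.63 CPM in any library.

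The stem-loop is the sequence that sets replication-dependent mRNAs apart, so it was searched on the transcribed strand of the members as GGNNCT, then 4 bases of any kind, then AGNNCC, with the 6-base arms complementary. It was found in 46 of the 67 replication-dependent genes and in 1 of the 15 variant genes, H2afx. Where it was not found, these letters were not in the annotated transcript, which for 13 replication-dependent genes held no 3′ UTR at all. The 26-base windows of the members most discussed here are printed 5′ to 3′ as DNA from the GENCODE M21 transcripts (GRCm38), with the stem and loop in capitals.
Hist1h1c: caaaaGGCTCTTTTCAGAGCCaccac
Hist1h2ac: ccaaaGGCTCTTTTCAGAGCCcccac
Hist1h2bj: ccaaaGGCTCTTTTCAGAGCCacgca
Hist1h2bk: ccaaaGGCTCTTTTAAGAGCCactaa
Hist1h3g: ttaaaGGCTCTTCTTAGAGCCaccca
Hist1h4b: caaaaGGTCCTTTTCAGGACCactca
Hist1h4i: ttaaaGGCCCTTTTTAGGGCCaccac
Hist1h4j: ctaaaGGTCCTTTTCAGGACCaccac
H2afx: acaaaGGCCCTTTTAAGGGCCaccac
The windows lie at chr13:23739507-23739532 (plus strand), chr13:23683472-23683497 (minus), chr13:22043633-22043658 (plus), chr13:22036295-22036320 (plus), chr13:23535884-23535909 (plus), chr13:23757361-23757386 (plus), chr13:22040961-22040986 (minus), chr13:21735432-21735457 (plus) and chr9:44335235-44335260 (plus), each in the 3′ UTR of a single-exon gene. There were 9 distinct cores among the 47 genes, and the core shown for Hist1h1c and Hist1h2ac was the most frequent, in 26. Among H2A and H2B genes with a stem-loop it was carried by 18 of 21, so genes that differed in direction, such as Hist1h2bj and Hist1h2ag, did not differ in these letters. Every H4 gene with a match had another core, with GGCC or GGTC at its start as shown for Hist1h4i and Hist1h4j. What followed the stem-loop varied far more: the annotated transcript ran on for 840 bases in Hist1h1c, 2010 in Hist1h2ac, 330 in Hist1h4i, 385 in Hist1h4j and 822 in H2afx, against 23 in Hist1h2bj, 30 in Hist1h2bk, 47 in Hist1h3g and 28 in Hist1h4b.

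Of the 82 members, 56 passed the filter on low counts and were tested, 47 of them replication-dependent and 9 variant. Among the replication-dependent genes 11 rose and 6 fell in sh-1 (edgeR quasi-likelihood test, adjusted p under 0.05 over all 13197 genes tested), and among the variants 2 rose and 3 fell. Over all genes tested, 65.5% passed this threshold in either direction, 33.3% as higher and 32.2% as lower, beside 22 of the 56 histone genes tested. The median log2 fold change was -0.02 over the 47 replication-dependent genes and -0.16 over the 9 variants, beside 0.00 over all genes tested. The replication-dependent changes ran from -2.16 to 3.07 and family ranges overlapped widely, with no test made between families. H2B genes rose in 7 of 13 tested and fell in 0, with a median of 0.84, whereas H2A genes rose in 1 and fell in 2 of 11 (median -0.41) and H3 genes rose in 0 and fell in 2 of 10 (median -0.49). H4 genes rose in 2 and fell in 1 of 10 (median -0.07), and of 3 tested replication-dependent H1 genes 1 rose and 1 fell. With the GC and length trend removed, the counts of higher and lower were 6 and 1 for H2B (median 1.05) and 2 and 1 for H2A (median 0.01). For H3 they were 0 and 1 (median -0.43) and for H4 3 and 0 (median 0.29). For the replication-dependent H1 genes they were 1 and 2 (median -1.27) and for the variants 3 and 4 (median -0.51). Over all genes in that fit, 32.5% passed as higher and 34.5% as lower.

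**Figure D1:**
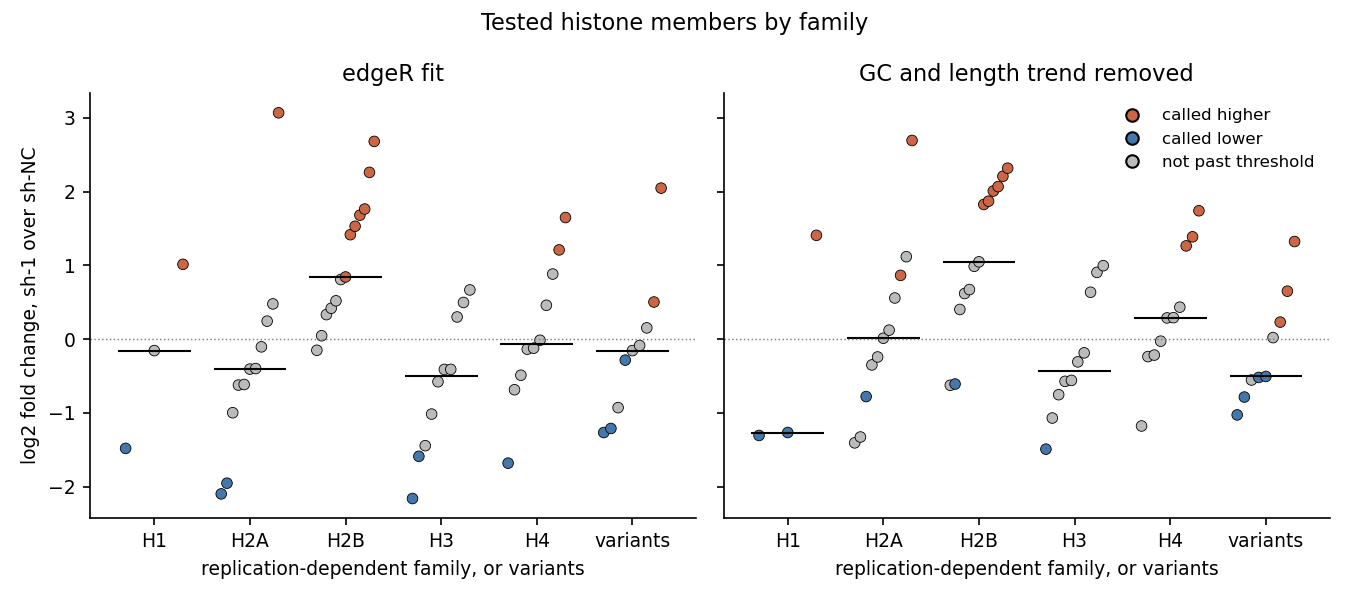
Log2 fold changes (sh-1 over sh-NC) of the 56 tested members by family, in the edgeR fit (left) and with the GC and length trend removed (right); each point is a gene, coloured by its call at an adjusted p under 0.05, and lines mark medians. H2B is the family whose median lies highest in both panels, at 0.84 and 1.05.

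The 6 falls and the 11 rises did not stand on equal data. Of the 6 genes that fell, 5 passed the low-count filter through the sh-NC libraries alone, which favoured a fall. They were Hist1h1e, Hist1h2ag, Hist1h2ak, Hist1h3g and Hist1h4b, and their p-values and group gaps are given as a description. The filter did not fix the outcome, since 7 tested replication-dependent genes passed in this way, and Hist1h2ad among them was not called. Of the 11 that rose 1 (Hist1h4j) passed through sh-1 alone, which favoured a rise, and its p-value is likewise a description. With the GC and length trend removed, 10 of the 11 rises and 2 of the 6 falls kept their call, beside 67% of all genes called in that fit (32.5% higher, 34.5% lower). The median over the replication-dependent genes was then 0.29. Many core histone genes are also hard to count separately: in 31 of the 82 members more than 50% of the 50-base stretches of the transcript recur in another gene, none of them an H1 gene, and this holds for 10 of the 17 replication-dependent genes called. How reads that fit several copies were assigned is not given in the sources used here.

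Taken as a sum, the 67 replication-dependent genes gave 122, 118 and 137 CPM in sh-NC and 221, 169.7 and 221 CPM in sh-1. Each sh-1 library lay above each sh-NC library, with means of 126 ± 10.2 and 204 ± 29.6 CPM (SD, n = 3), a ratio of 1.62. A pair of genes carried most of this: without Hist1h1c and Hist1h2bc the sums were 90.1 ± 8.78 and 107 ± 16.9 CPM, and the groups then overlapped. By family, the summed CPM was 29.4 ± 2.32 in sh-NC and 56.0 ± 7.30 in sh-1 for H1 and 35.2 ± 1.39 and 83.5 ± 13.4 for H2B. It was 42.0 ± 6.05 and 42.6 ± 5.48 for H2A, 9.0 ± 1.76 and 6.95 ± 0.965 for H3 and 10.4 ± 1.51 and 14.7 ± 3.25 for H4. The 15 variants gave a far larger total, 2309 ± 38.2 CPM in sh-NC and 2099 ± 83.6 in sh-1. All 3 sh-1 libraries lay below all 3 sh-NC libraries. This fall came through H1f0, whose values are given below, and was not a fall of the variants as a class. Without it the remaining variants were higher in every sh-1 library than in any sh-NC library. The H3.3 genes alone went from 892 ± 11.8 to 1119 ± 82.1 CPM. The GC trend was not removed from these sums.

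H2B genes showed the most uniform direction. Hist1h2bc had 9.11, 7.92 and 9.31 CPM in sh-NC and 49.4, 34.8 and 42.0 CPM in sh-1. The lowest sh-1 library lay well above the highest sh-NC library, and the log2 fold change was 2.26 ± 0.14 (SE, adjusted p = 8.12e-08). It is annotated with 2 exons and 742 bases of 3′ UTR in which the stem-loop letters were not found. Hist1h2bc was also the most abundant H2B gene of sh-1 per transcript length, at 35.7 FPKM (the deposited level scaled for length and depth), beside 7.13 FPKM in sh-NC.

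Hist1h2br, a spliced H2B gene with 3 annotated exons, had 1.16, 0.42 and 0.499 CPM in sh-NC and 6.69, 1.77 and 4.90 CPM in sh-1. The groups did not overlap, although sh-1 replicate 2 sat close to the highest sh-NC library, and the log2 fold change was 2.68 ± 0.51 (adjusted p = 0.000642). It was 3.28 without sh-NC replicate 1. Its close copy Hist1h2bq had 1.16, 1.44 and 1.37 CPM in sh-NC and 2.40, 2.23 and 2.50 CPM in sh-1. All sh-1 libraries were higher, with a log2 fold change of 0.84 ± 0.29 (adjusted p = 0.0223). Of the 50-base stretches of these transcripts, 97.3% in Hist1h2bq and 88.5% in Hist1h2br recur in other genes, so the division of reads between them is uncertain. The length implied by counts and FPKM of Hist1h2bq lay between 682 and 825 bases for the sh-NC libraries but between 428 and 616 for sh-1, so the 2 deposited measures gave different folds. The call for Hist1h2bq was lost without sh-NC replicate 1 (adjusted p = 0.0613), without sh-1 replicate 3 (0.0553) and with the GC trend removed (0.0798).

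The other 4 H2B genes that rose had a lower FPKM level than Hist1h2bc in every library. Hist1h2bg had 1.23, 2.18 and 1.79 CPM in sh-NC and 4.24, 2.77 and 10.7 CPM in sh-1. Every sh-1 library was higher, but sh-1 replicate 3 stood far above the other two, and the log2 fold change of 1.76 ± 0.45 (adjusted p = 0.00496) was 1.03 without it. Hist1h2bn had 0.338, 0.262 and 0.374 CPM in sh-NC and 1.22, 1.07 and 0.86 CPM in sh-1 (log2 fold change 1.68 ± 0.48, adjusted p = 0.00796). Hist1h2bj had 0.725, 1.13 and 1.06 CPM in sh-NC and 2.47, 2.21 and 3.75 CPM in sh-1 (1.53 ± 0.34, adjusted p = 0.00163). Neither gene had overlapping groups, and both gave larger fold changes with the GC trend removed, 2.21 and 2.07. Hist1h2bk had 2.03, 2.83 and 2.37 CPM in sh-NC and 4.03, 6.28 and 8.99 CPM in sh-1 (1.42 ± 0.29, adjusted p = 0.000964). Its sh-1 libraries were spread widely but all lay above sh-NC. The most abundant H2B gene that was not called was Hist2h2be, which encodes an H2B form known from mouse olfactory neurons. It had 18.0, 14.9 and 15.3 CPM in sh-NC and 12.9, 14.4 and 16.1 CPM in sh-1, overlapping groups with a log2 fold change of -0.15 ± 0.14 (adjusted p = 0.369). With the GC trend removed it passed as lower (-0.61, adjusted p = 0.00041).

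**Figure D2:**
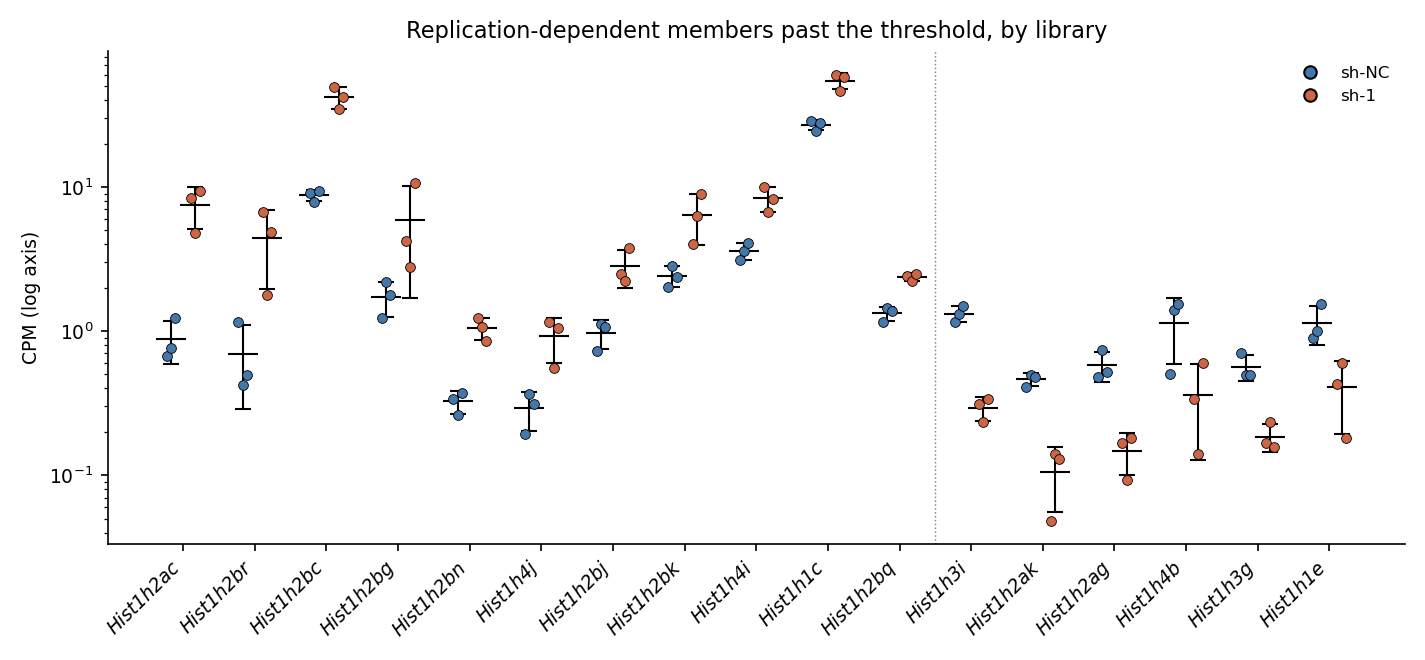
CPM (log axis) of the 17 replication-dependent genes past the threshold in each of the 6 libraries; points are libraries, and bars are the mean ± SD of 3. The 11 genes left of the dotted line rose and the 6 to its right fell, the latter all at or below 1.54 CPM; Hist1h4b is the gene whose groups overlap.

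H2A proteins pair with H2B, yet among H2A genes only Hist1h2ac passed as higher. Hist1h2ac had 0.677, 0.761 and 1.23 CPM in sh-NC and 8.34, 4.82 and 9.41 CPM in sh-1. The groups were far apart, with a log2 fold change of 3.07 ± 0.33 (adjusted p = 4.47e-06), the largest rise among the members tested. Hist1h2ak had 0.411, 0.498 and 0.478 CPM in sh-NC and 0.048, 0.14 and 0.13 CPM in sh-1, and its log2 fold change was -2.10 ± 0.67 (adjusted p = 0.0156). Hist1h2ag had 0.483, 0.735 and 0.52 CPM in sh-NC and 0.168, 0.0931 and 0.182 CPM in sh-1 (-1.95 ± 0.61, adjusted p = 0.0134). In both genes all sh-1 libraries were lower, no sh-1 library reached the count minimum, and the calls were lost with the GC trend removed (adjusted p = 0.0894 and 0.0743). Hist1h2ag also lost its call without sh-1 replicate 2 (adjusted p = 0.0557).

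The most abundant replication-dependent H2A genes were not called. Hist3h2a, the single tested gene of the Hist3 cluster, had 20.6, 14.1 and 21.2 CPM in sh-NC and 12.5, 15.0 and 14.9 CPM in sh-1. The groups overlapped through sh-NC replicate 2, the log2 fold change was -0.40 ± 0.17 (adjusted p = 0.0524), and it passed as lower without that library (-0.56, adjusted p = 0.00706) and with the GC trend removed (-0.78). Hist3h2a shares exon sequence on the same strand with Trim17, which had 273 counts in sh-NC replicate 2 and 36 to 56 in the other libraries. Hist2h2aa1 had 6.65, 14.6 and 9.71 CPM in sh-NC and 11.1, 6.91 and 10.8 CPM in sh-1. Hist2h2aa2, its near-identical copy, had 6.91, 3.96 and 9.79 CPM in sh-NC and 11.2, 7.14 and 6.18 CPM in sh-1. The groups overlapped in both, with log2 fold changes of -0.10 ± 0.27 and 0.24 ± 0.31, and with 96.3% and 100% of 50-base stretches shared the division of reads between them is uncertain. Their directions were not stable either: with the GC trend removed the changes were 0.56 (not called) and 0.86 (called, adjusted p = 0.0361).

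Most replication-dependent H2A and H2B genes lie head to head, an arrangement in which the starts of both genes face away from a shared promoter. There were 12 such pairs among the members, with at most 306 bases between starts, and both genes were tested in 7. The H2B gene had the higher log2 fold change in 6 of the 7, and in the same 6 the H2B value was above 0 and the H2A value below 0. With the GC and length trend removed the H2B gene was still the higher in 6, but the signs were opposite in 4, and 0 of the 7 H2A genes passed as lower. Both genes passed the threshold in opposite directions in 2 pairs, Hist1h2ag with Hist1h2bj and Hist1h2ak with Hist1h2bn. Both of these H2A genes passed the low-count filter through sh-NC alone, which favoured a fall, and their ratios are given as a description. In Hist1h2ag with Hist1h2bj, the log2 ratio of H2B to H2A CPM was 0.50, 0.56 and 0.90 in sh-NC and 3.26, 3.58 and 3.77 in sh-1. For Hist1h2ak with Hist1h2bn it was -0.22, -0.72 and -0.29 in sh-NC and 3.16, 2.29 and 2.06 in sh-1. The ratios of the groups did not overlap in 4 of the 7 pairs. Hist1h2ac with Hist1h2bc was the exception, both genes rising, with starts 251 bases apart.

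The promoter window of Hist1h2ac spans the whole interval between those starts, and is printed because it serves the pair with the largest joint rise. It is shown 5′ to 3′ on the minus strand at chr13:23683910-23684209 (RefSeq, GRCm38.p6), from 250 bases before to 50 after the RefSeq start of the gene, with the octamer in capitals.
Hist1h2ac promoter: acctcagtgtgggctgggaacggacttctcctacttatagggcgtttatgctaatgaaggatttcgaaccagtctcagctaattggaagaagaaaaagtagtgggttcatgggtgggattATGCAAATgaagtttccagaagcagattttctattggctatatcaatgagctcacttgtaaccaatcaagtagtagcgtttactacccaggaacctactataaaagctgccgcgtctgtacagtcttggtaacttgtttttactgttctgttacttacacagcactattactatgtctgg
The octamer ATTTGCAT, searched on both strands (ATGCAAAT on the other), is the element through which the POU factor OCT1 is known to act at H2B promoters. It was present in the windows of 7 of 18 H2A, 7 of 16 H2B, 0 of 6 H1, 0 of 10 H3 and 0 of 12 H4 genes with a RefSeq promoter, beside 1.97% of 27025 mouse genes. Of the 7 H2B genes that rose, Hist1h2bg and Hist1h2bk held it, and Hist1h2bj, Hist1h2bn, Hist1h2bq and Hist1h2br did not. Hist1h2bc was not matched to a window of its own, but the window printed for Hist1h2ac, which holds the octamer, covers its start. Of the 82 members, 76 matched a RefSeq promoter.

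**Figure D3:**
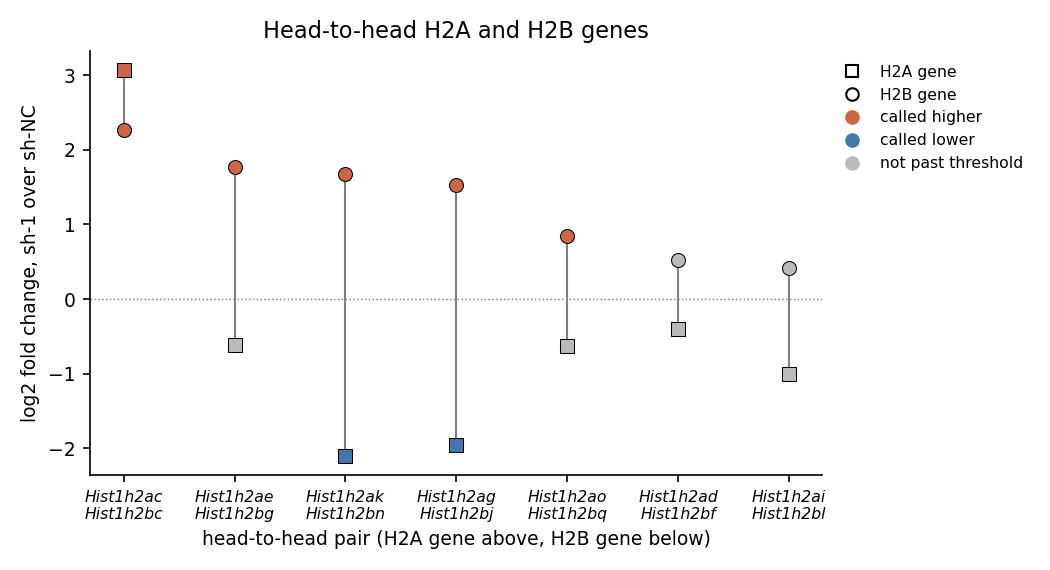
Log2 fold changes (sh-1 over sh-NC) of the H2A gene (square) and H2B gene (circle) in the 7 head-to-head pairs with both genes tested, coloured by call at an adjusted p under 0.05. In 6 pairs the H2B gene lies above 0 and the H2A gene below (4 with the GC and length trend removed, not drawn); in Hist1h2ac with Hist1h2bc both are above 2 on this scale.

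H3 genes, which encode the replicative forms of the histone whose tail carries most of the studied methylation marks, had no rise. Hist1h3i had 1.16, 1.31 and 1.5 CPM in sh-NC and 0.312, 0.233 and 0.339 CPM in sh-1. Every sh-1 library was lower, with a log2 fold change of -2.16 ± 0.46 (adjusted p = 0.00126), and the fall kept its call with the GC trend removed (-1.49, adjusted p = 0.0115). Hist1h3g had 0.701, 0.498 and 0.499 CPM in sh-NC and 0.168, 0.233 and 0.156 CPM in sh-1, -1.59 ± 0.58 (adjusted p = 0.0282). It passed the low-count filter through sh-NC alone, which favoured a fall, so its p-value is a description. Its groups did not overlap either, but the call was lost with the GC trend removed (adjusted p = 0.136) and without sh-NC replicate 1 (0.0956), sh-1 replicate 1 (0.0631) or sh-1 replicate 3 (0.0762). The 8 other tested H3 genes had fold changes from -1.44 (Hist2h3b) to 0.67 (Hist2h3c1) and none passed.

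H4 genes differ little in protein and were mixed in direction. Hist1h4i had 3.09, 3.59 and 4.11 CPM in sh-NC and 10.02, 6.72 and 8.26 CPM in sh-1, with groups well apart and a log2 fold change of 1.21 ± 0.21 (adjusted p = 0.000305). Hist1h4j had 0.193, 0.367 and 0.312 CPM in sh-NC and 1.15, 0.558 and 1.04 CPM in sh-1 (1.65 ± 0.54, adjusted p = 0.0169). It passed the low-count filter through sh-1 alone, which favoured a rise, so its p-value is a description. Its groups did not overlap, and the call was lost without sh-NC replicate 1 (adjusted p = 0.0557) or sh-1 replicate 1 (0.057). Hist1h4b had 0.508, 1.39 and 1.54 CPM in sh-NC and 0.336, 0.14 and 0.599 CPM in sh-1 (-1.68 ± 0.62, adjusted p = 0.03). Here sh-NC replicate 1 fell within the range of sh-1. Hist1h4b passed the low-count filter through sh-NC alone, which favoured a fall, so its p-value is a description. The call was lost with the GC trend removed (adjusted p = 0.0913) and without sh-NC replicate 2 (0.0786), sh-NC replicate 3 (0.111), sh-1 replicate 1 (0.0673) or sh-1 replicate 2 (0.1).

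Linker histones changed in composition. H1f0, which encodes H1.0, a linker histone that accumulates in quiescent and differentiated cells, had 804, 801 and 792 CPM in sh-NC and 338, 307 and 352 CPM in sh-1. The groups were widely separated, with a log2 fold change of -1.27 ± 0.08 (adjusted p = 1.05e-07). Hist1h1c, which encodes the somatic linker histone H1.2, had 28.6, 24.5 and 27.9 CPM in sh-NC and 59.5, 46.5 and 57.6 CPM in sh-1. All sh-1 libraries were higher, with a log2 fold change of 1.01 ± 0.12 (adjusted p = 9.19e-06). Hist1h1e, which encodes H1.4, had 0.894, 0.997 and 1.54 CPM in sh-NC and 0.432, 0.605 and 0.182 CPM in sh-1. Its log2 fold change was -1.48 ± 0.53 (adjusted p = 0.0269). This gene passed the low-count filter through sh-NC alone, which favoured a fall, so its p-value is a description. Its groups did not overlap, but the call was lost without sh-NC replicate 3 (adjusted p = 0.113) or sh-1 replicate 3 (0.08), and its exon sequence overlaps that of Hist1h2be on the same strand.

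Per transcript length, H1f0 made up 95.4, 95.9 and 95.3% of the summed FPKM of all linker histone members in sh-NC and 80.9, 83.2 and 82.1% in sh-1. Hist1h1c made up 4.46, 3.87 and 4.42% in sh-NC and 18.8, 16.6 and 17.7% in sh-1. The groups did not overlap in either share. An exact 2-sided permutation test over the 6 libraries gave p = 0.1 for each share, the smallest value that 3 against 3 allows. H1f0 held the larger part of the captured linker histone mRNA in both groups.

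Among the core variants the largest change was in H3.3, the H3 variant that is deposited outside replication and that H3f3a and H3f3b encode as the same protein. H3f3a had 96.3, 82.6 and 83.3 CPM in sh-NC and 321, 359.5 and 402 CPM in sh-1. The groups were far apart, with a log2 fold change of 2.05 ± 0.10 (adjusted p = 1.74e-08), and with the GC trend removed it was 1.32 (adjusted p = 3.74e-09). H3f3b had 795, 798 and 821 CPM in sh-NC and 711, 769 and 793 CPM in sh-1. The sh-1 values lay just below those of sh-NC, and the change of -0.09 ± 0.08 did not pass (adjusted p = 0.384), although with the GC trend removed it passed as lower (-0.79, adjusted p = 4.28e-07).

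As a share of the FPKM of both H3.3 genes, H3f3a was 8.06, 6.94 and 7.44% in sh-NC and 24.2, 24.7 and 26.3% in sh-1. The groups did not overlap (exact 2-sided permutation p = 0.1, the smallest possible with 3 against 3). The summed FPKM of both genes was 418, 399.8 and 404 in sh-NC and 450.1, 509.9 and 536 in sh-1, so each sh-1 library lay above each sh-NC library. The GC trend was not removed from these sums. Where it was removed, H3f3b, the larger part of the sum in both groups, passed as lower, so a rise of the sum is not established. Exons of H3f3a overlap genes on the opposite strand, and whether the counting used strand is not given in the sources used here.

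**Figure D4:**
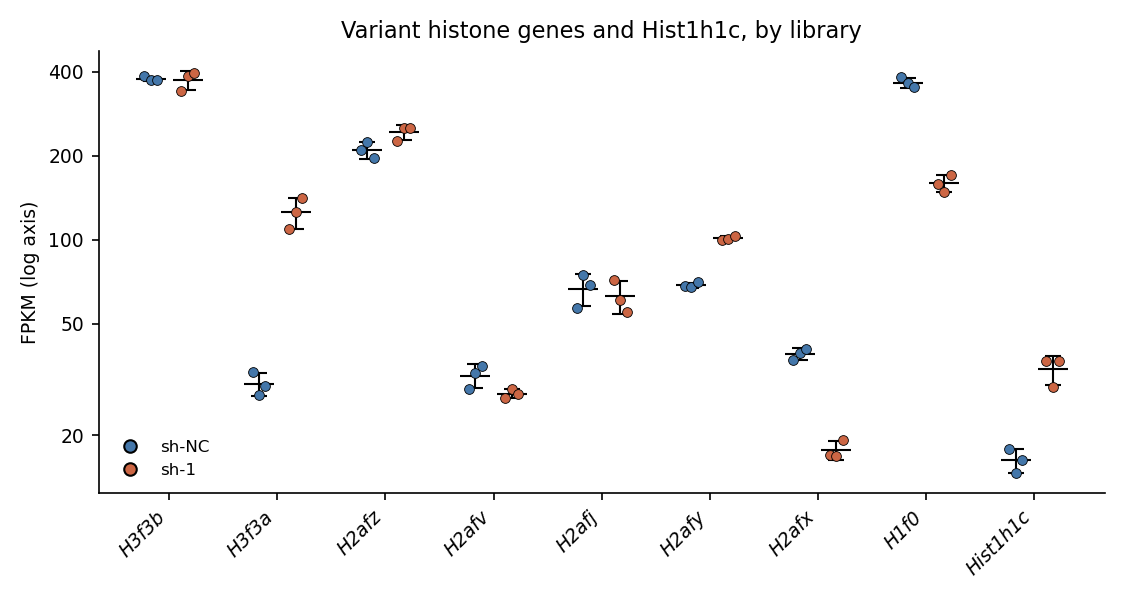
FPKM (log axis), a level scaled for transcript length, of the 8 variant genes above 10 FPKM and of Hist1h1c in each library; points are libraries and bars the mean ± SD of 3. H3f3a lies at or below 33.7 in the sh-NC libraries and at or above 109 in sh-1. H1f0 lies at or above 351 in sh-NC and at or below 170.3 in sh-1. H3f3b, H2afj and, on this scale, H2afv overlap between groups.

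The H2A variants moved in different directions. H2afx, the H2A.X gene whose protein is phosphorylated around DNA breaks, had 52.6, 58.5 and 61.8 CPM in sh-NC and 24.5, 23.4 and 26.8 CPM in sh-1. The groups were clearly separated, with a log2 fold change of -1.21 ± 0.10 (adjusted p = 7.57e-07). With the GC trend removed the fall was smaller but kept its call (-0.51, adjusted p = 0.000202). H2afy, which encodes macroH2A1, a large variant enriched on silent chromatin, had 140.1, 143 and 152 CPM in sh-NC and 207, 201 and 209 CPM in sh-1. Its sh-1 libraries all lay above sh-NC, with a log2 fold change of 0.50 ± 0.07 (adjusted p = 7.7e-05).

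H2A.Z, a variant found at promoters, comes from H2afz and H2afv. H2afz had 221, 247 and 220.4 CPM in sh-NC and 241, 265 and 259 CPM in sh-1, overlapping groups with a change of 0.15 ± 0.08 that did not pass (adjusted p = 0.119). H2afv had 47.6, 58.7 and 59.0 CPM in sh-NC and 45.1, 46.0 and 44.6 CPM in sh-1. The groups only just parted, and the fall of -0.28 ± 0.10 (adjusted p = 0.0273) was lost without sh-NC replicate 2 (adjusted p = 0.11), sh-NC replicate 3 (0.108), sh-1 replicate 1 (0.0535), sh-1 replicate 2 (0.084) or sh-1 replicate 3 (0.102). H2afj, the gene of H2A.J, had 107, 145 and 137 CPM in sh-NC and 137, 110.3 and 102 CPM in sh-1. Its groups overlapped (-0.16 ± 0.13, adjusted p = 0.31), and with the GC trend removed its direction turned to 0.23 (adjusted p = 0.0454). H2afy2, the macroH2A2 gene, was near the count minimum, with 5 to 21 counts per library, and did not pass (-0.93 ± 0.69, adjusted p = 0.258).

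The remaining 26 members were too low to test. Of the 20 replication-dependent genes among them, the highest library reached 33 counts (Hist1h3c), and 2, Hist1h1t and Hist1h2aa, had 0 counts in every library. Of the 6 variants, H1foo had 5 counts in 1 sh-1 library and H1fx 5 counts in 1 sh-NC library. H1fnt, H2afb1, H2afb2 and H2afb3 had 0 counts in every library, for which a count of 0 allows up to 3 counts, or 0.0811 CPM in the smallest library. H1t, H1fnt and H2afb are known from the testis and H1foo from the oocyte. The 30 tested replication-dependent genes that did not pass had a wide range of direction, and the median depth over all 47 tested was 31.8 counts per library.

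The annotated 3′ end was then set against the fold change, because it bears on which histone mRNAs oligo(dT) can capture. A long form was counted where the annotated transcript ran at least 60 bases past the stem-loop, or had over 100 bases of 3′ UTR without it. Among the 23 tested replication-dependent genes with a long form 8 rose and 1 fell (median log2 fold change 0.30). Among the 24 with a short form only, 3 rose and 5 fell (median -0.26). Over all genes tested, 33.3% passed as higher and 32.2% as lower. The histone falls, but for that of Hist1h3i, came from genes that passed the low-count filter through sh-NC alone, which favoured a fall. In summed CPM, the long-form genes gave 94.4, 81.7 and 97.8 in sh-NC and 181, 139 and 179.7 in sh-1, with no overlap. Hist1h1c and Hist1h2bc, both with a long form, carried most of this difference, and without them the long-form groups overlap too. The short-form genes gave 27.9, 36.3 and 39.7 in sh-NC and 39.9, 30.2 and 41.0 in sh-1, which overlap. GC content moved with this split, with medians of 48.5% in the long and 63.0% in the short forms, and with the GC and length trend removed the medians were 0.29 and 0.28. In that fit 7 long-form genes passed as higher and 4 as lower, against 5 and 1 of the short-form genes.

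**Figure D5:**
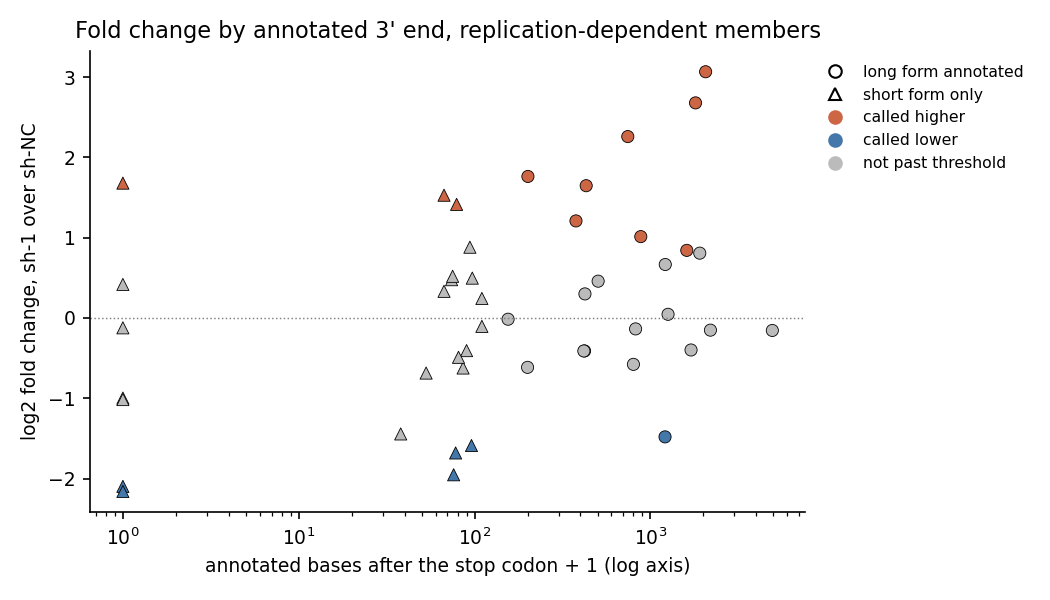
Log2 fold change (sh-1 over sh-NC) of the 47 tested replication-dependent genes against the annotated number of bases after the stop codon plus 1 (log axis); circles have a long form annotated, triangles only a short form, and colour gives the call. Of 9 long-form calls 8 are rises, whereas 5 of 8 short-form calls are falls. Over all genes tested, 33.3% passed as higher and 32.2% as lower. All falls but that of Hist1h3i are of genes that passed the low-count filter through sh-NC alone. With the GC and length trend removed (not drawn), 7 long-form genes passed as higher and 4 as lower, against 5 and 1 short-form genes.

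Genes that make, load and destroy histone mRNAs were read from lists of their own. Their counts stand beside 33.3% of all genes tested called higher and 32.2% called lower, and no list was tested. Of 28 genes tested for 3′ end processing of histone pre-mRNA, 12 rose and 13 fell (median -0.09), and 5 of the rises and 11 of the falls kept their call with the GC trend removed. Slbp, which encodes the protein that binds the stem-loop, had 90.1, 79.8 and 84.9 CPM in sh-NC and 77.7, 85.6 and 85.5 CPM in sh-1, overlapping groups whose change was -0.03 ± 0.09 (adjusted p = 0.742). With the GC trend removed it passed as lower (-0.61). Npat, the coactivator of clustered histone genes, had 6.65, 4.67 and 7.40 CPM in sh-NC and 12.4, 21.9 and 23.1 CPM in sh-1, and rose by 1.62 ± 0.24 (adjusted p = 9.1e-05), or 0.52 with the GC trend removed. Others past the threshold were Cpsf2, a subunit of the cleavage factor (0.78, and 0.03 with the GC trend removed, no longer called), and Cdk9, the elongation kinase (-0.84). Mblac1, which encodes a nuclease known from histone pre-mRNA processing in human cells, changed by -1.25, and Wdr33, which encodes the subunit that reads the poly(A) signal, by -0.64.

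Of 14 genes of canonical cleavage and polyadenylation, 5 rose and 6 fell (median -0.12), beside 33.3% and 32.2% of all genes tested. Of these, 4 rises and 6 falls kept their call with the GC trend removed, where the median was -0.46. Papola, the poly(A) polymerase gene, rose by 1.44 ± 0.10 and Cstf3 by 1.70 ± 0.10, whereas Cpsf4 fell by 1.22 ± 0.10 and Cstf1 by 0.92 ± 0.09 on the log2 scale. Of 14 genes of histone mRNA decay, 6 rose and 5 fell (median 0.19), of which 2 and 4 kept their call with the GC trend removed. Upf1, which encodes a helicase recruited by the stem-loop protein at the end of S phase in human cells, fell by 1.42 ± 0.08, and Lsm1 fell by 0.88 ± 0.10. Dis3 and Dis3l2, exonuclease genes, rose by 1.61 ± 0.13 and 0.98 ± 0.12, the latter with a value of -0.06 and no call once the GC trend was removed.

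Histone chaperones and loaders rose in 18 and fell in 12 of 35 tested (median 0.25), beside 33.3% and 32.2% of all genes tested. Of these, 15 rises and 9 falls kept their call with the GC trend removed, where the median was 0.07. Atrx, which with DAXX loads H3.3, rose by 3.22 ± 0.22, Npm1 by 1.97 ± 0.14, Anp32e, which removes H2A.Z, by 1.54 ± 0.10 and Rbbp7 by 0.88 ± 0.08. S-phase genes rose in 24 and fell in 2 of 28 tested, with a median of 0.85 and 22 rises kept with the GC trend removed. Pcna, the replication clamp, had 112, 101 and 108 CPM in sh-NC and 182, 254 and 252 CPM in sh-1, a rise of 1.10 ± 0.12 (adjusted p = 5.28e-06). Pola1 rose by 3.84 ± 0.18, Rrm2 by 1.78 ± 0.11, Mcm6 by 1.75 ± 0.11 and Uhrf1 by 1.27 ± 0.08. Replication-dependent histone genes did not share this uniform direction, and in these bulk libraries more cells in S phase and more mRNA per cell cannot be told apart. The part of these genes in the histone values was not tested.

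Outside the naming rule, the centromeric H3 variant gene Cenpa had 17.8, 22.1 and 21.6 CPM in sh-NC and 2.42, 2.84 and 1.77 CPM in sh-1. The groups were far apart, with a log2 fold change of -3.12 ± 0.20 (adjusted p = 8.12e-08), and the value with the GC trend removed was -3.17. No member of either class fell by as much.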

How the data were processed

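AML12 mRNA of 3 sh-NC and 3 sh-1 libraries was measured by RNA sequencing after oligo(dT) enrichment, per the labels' protocols. The submitters' processing notes list GRCm38, HISAT2 and StringTie, with versions, strand and multi-read handling not given in the sources used here. The authors deposited whole-number counts per gene, not normalized, and FPKM values, which the authors scaled for depth and length, as named in the file headers. The 10 rows without an identifier were left out.

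Counts were tested with edgeR 4.0.16 in R 4.3.3 (filterByExpr, TMM, robust quasi-likelihood test) with Benjamini-Hochberg adjustment over 13197 genes at 0.05. CPM are TMM-scaled, errors of fold changes are SE, and FPKM served for levels and as an alternative. The GC and length trend was removed with splines over 11986 genes. Alternatives were DESeq2 1.42.0, limma 3.58.1 on log2(FPKM + pseudocount), other filters and scalings, single libraries left out, and a replicate block. Transcripts came from GENCODE M21. Values in every library are given for members past the threshold and the 6 most abundant of each class, and for up to 4 genes of each context list the values or fold changes. Members, lists and splits were chosen with earlier results of these data known.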

Additional observations from a re-analysis of the deposited data

How the results depend on the processing

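Over 15 alternatives to the main settings, replication-dependent genes called higher numbered 8 to 13 beside 11, and all-gene counts stayed within 1.5 times. Genes called lower (6) numbered 1 with a mean CPM of at least 1, where fewer genes were tested, and 1 with the replicate block, in which 4 libraries with shared title numbers gave 8 rises. The same 4 libraries without the block, chosen after seeing the data, gave 9 and 2. Same-numbered libraries deviated with correlations of 0.02 and -0.04. These values show no sign of pairing by number, but with only 2 shared numbers they cannot exclude it. Leaving out single libraries gave 9 to 12 rises and 4 to 6 falls, for variants 2 rises and 2 to 3 falls, for all genes 4023 to 4501 rises and 3764 to 4200 falls, and log2 ratios of the summed CPM of 0.63 to 0.81 (replication-dependent) and -0.17 to -0.11 (variant). The variant ratio of -0.14 was -0.0495 with library totals alone.

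Directions turned in results that were not called. Hist2h2aa1 gave 0.10 to 0.23 without sh-1 or sh-NC replicate 2, 0.56 with the GC trend removed and 0.0014 and 0.0033 in FPKM, within a range over left-out libraries of -0.33 to 0.23. Hist2h2aa2 gave -0.03 without sh-NC replicate 2 and -0.0520 without sh-1 replicate 1, within -0.0520 to 0.59. H3f3b gave 0.0017 with library totals, and H2afj 0.23 with the GC trend removed. Slbp gave 0.0523 with library totals, 0.0126 with the replicate block, 0.015 and 0.0153 in FPKM, and -0.0775 to 0.0223 without single libraries (0.0223 and 0.0103 without replicate 1 of sh-NC or sh-1). Dis3l2, called in the main fit, gave -0.0643 with the GC trend removed. The cause was not tested. Depth limits the members with low counts.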
